A study of Drosophila melanogaster with 15 samples.

Results

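The data compared here are 3 libraries titled dppOE (dpp overexpression) and 3 libraries titled control, chosen by title from the 15 libraries of the series, and cover all 15682 gene symbols counted. The flies were Drosophila melanogaster of strain background w1118, which all 15 libraries share. The tissue label of every library reads skeletal muscle, taken by dissection, and the RNA was total RNA prepared by a stranded method. The overexpression group carries the genotype label dpp overexpression, and the other 9 libraries hold a control RNAi group and 2 groups labelled dpp RNAi. The treatment label reads RNAi for every library, the overexpression and control libraries included, although their titles and genotype labels name no RNAi construct. The promoter or driver used for overexpression, the age and sex of the flies, and whether animals were pooled are not given in the sources used here. The series title places the experiment in a study of muscle-derived Dpp, feeding initiation and dopamine synthesis in the brain.

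Decapentaplegic, the product of dpp, is a ligand of the bone morphogenetic protein (BMP) family that cells secrete. It binds the receptors Thickveins, Saxophone and Punt, which phosphorylate the transcription factor Mad. Together with Medea and Schnurri, phosphorylated Mad silences the repressor gene brk, and many targets of the pathway respond through the loss of that repressor, while the inhibitory Smad Dad is induced and damps the signal. Flies also possess a humoral immune system in which the Toll and Imd pathways act through NF-kappaB proteins to induce antimicrobial peptide genes, mostly in the fat body. The Toll pathway shares its founding members with the embryonic system that sets the expression domain of dpp.

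Gene counts, in units of 1e6, were 56.29, 49.63 and 25.54 in overexpression libraries 1, 2 and 3 and 53.33, 52.61 and 36.81 in control libraries 1, 2 and 3. Levels are given as CPM, the counts of a gene per 1e6 gene counts of its library, scaled by TMM factors, in library order 1, 2, 3, and changes as fitted log2 values ± SE for 3 libraries against 3. A gene is called when its Benjamini-Hochberg adjusted p in edgeR's quasi-likelihood test is under 0.05. The labels do not say that the libraries of a group came from separate animals, so p measures only the spread between libraries. That spread was estimated within the groups of all 15 libraries. Library 3 of the overexpression group stood apart from the other two. Its root mean square log2 distance was 0.434 to overexpression library 1 and 0.415 to library 2, against 0.226 between libraries 1 and 2 and 0.198 to 0.229 among the control libraries. Distances between the groups were larger, at 0.588 to 0.668. In this library 6.5% of entries were not aligned, against 1.22 to 2.43% in the other 5.

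The label of the tissue was compared with defining markers. ninaE, the rhodopsin of outer photoreceptors, took the largest share of counts, with 33000, 33900 and 35900 CPM in control and 31100, 31200 and 37200 CPM with overexpression, and it was not called (-0.05 ± 0.08, adjusted p = 0.722). The 10 photoreceptor markers summed to 62700 to 68800 CPM in control and 58900 to 70000 CPM with overexpression. The 12 muscle markers summed to 7490 to 8630 CPM in control and 7310 to 8800 CPM with overexpression, and fln, a protein of flight muscle, lay between 0.157 and 0.345 CPM in all 6 libraries. Both groups thus held abundant transcripts of the eye, and the libraries are called by their titles below rather than by the tissue label. In bulk libraries of this kind, fewer cells of a type and less RNA per cell cannot be told apart.

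dpp itself measured 35.1, 33.4 and 31.9 CPM in control and 71.6, 77.2 and 51.7 CPM with overexpression. All 3 overexpression libraries lay above the other 12 libraries of the series, in which the 9 libraries outside this comparison ranged from 29.3 to 35.0 CPM. The change was 1.00 ± 0.11 on the log2 scale (adjusted p = 1.39e-05), a rise of 2.0-fold in RNA summed over the material collected. Of the tested genes nearest to dpp on chromosome arm 2L, CG9886 on one side and Slh and oaf on the other were not called (0.01, -0.03 and 0.09). Next to CG9886, CG18641 was called lower at low levels, from a mean of 1.06 to 0.473 CPM (-1.23 ± 0.30, adjusted p = 0.00556). PIG-Wa, farther out on that side, was called lower too (-0.50 ± 0.11, adjusted p = 0.00265). Beyond oaf, Cyp309a1, a cytochrome P450 gene, rose from 27.5 ± 1.43 to 72.1 ± 22.8 CPM (mean ± SD, n = 3). Its change was 1.40 ± 0.19 (adjusted p = 0.000137). Its neighbour Cyp309a2 was called as well (0.87 ± 0.23, adjusted p = 0.0142), a call that ended without overexpression library 1 (0.55, adjusted p = 0.0511) and without control library 3 (0.82, adjusted p = 0.0504).

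**Figure D1:**
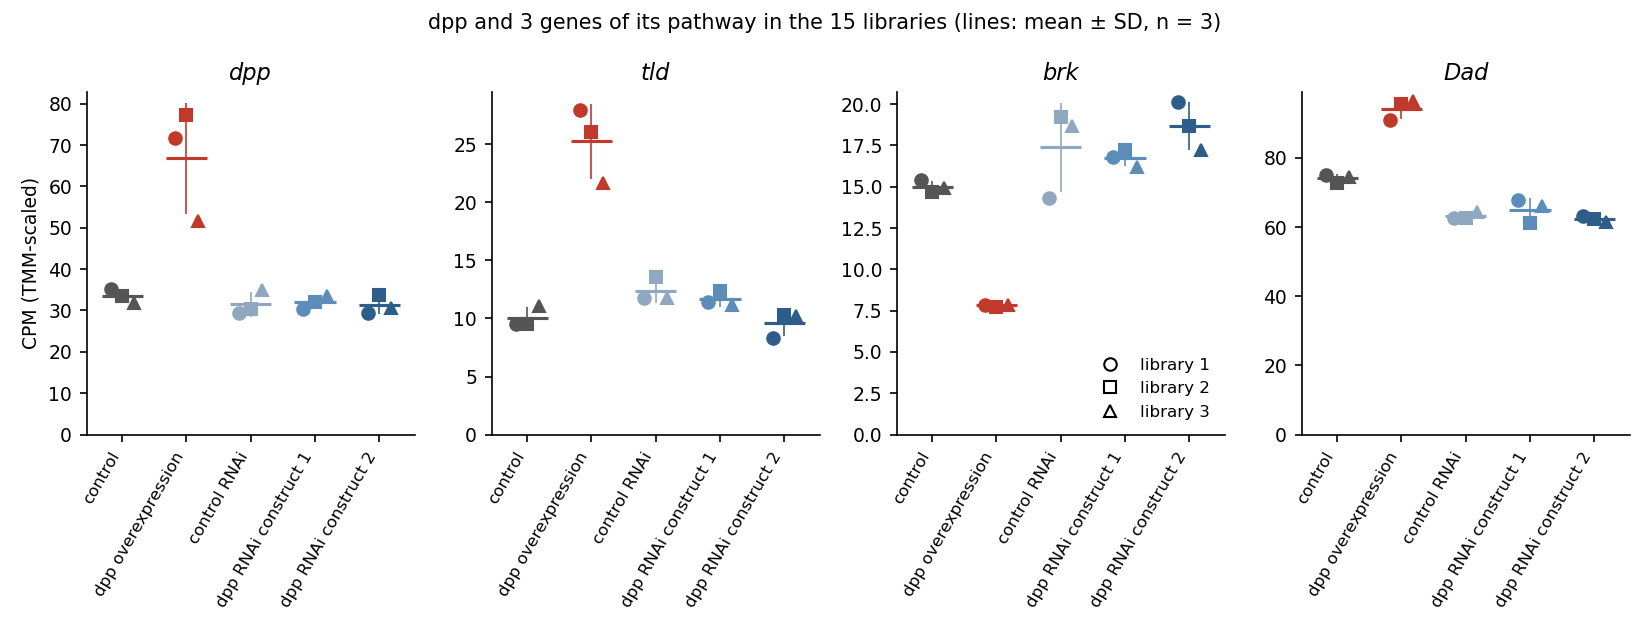
TMM-scaled levels (CPM, vertical axes from 0) of dpp, tld, brk and Dad in each of the 15 libraries, by group; symbols are libraries 1, 2 and 3, and lines give the mean and SD of 3 libraries. The overexpression libraries lie above all others for dpp (51.7 to 77.2 CPM), tld (21.7 to 28 CPM) and Dad (90.8 to 96.3 CPM) and below all others for brk (7.75 to 7.86 CPM).

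Among the extracellular components of the pathway, tld changed most. It encodes Tolloid, a metalloprotease that cleaves the Dpp inhibitor Sog and so frees the ligand, and it rose from 9.5, 9.52 and 11.1 CPM in control to 28, 26.1 and 21.7 CPM (1.34 ± 0.10, adjusted p = 5.42e-08). The groups did not overlap. sog itself fell from 92.5, 97.5 and 96.2 to 78, 83.7 and 75.8 CPM (-0.27 ± 0.05, adjusted p = 0.0012). mav, a ligand of the same superfamily, fell from 72.7, 71 and 73.3 to 53.6, 54.4 and 61.8 CPM (-0.36 ± 0.06, adjusted p = 0.000137). gbb, the BMP ligand that often pairs with Dpp, gave 42.7, 45.7 and 42.8 CPM in control and 42.3, 43.5 and 37 CPM with overexpression, overlapping ranges that were not called (-0.09 ± 0.07, adjusted p = 0.383). The list of 14 tested ligands and extracellular regulators, dpp included, held 4 rises and 6 falls, 4 members were not called, and the median was -0.04. Over all 10668 tested genes 29.6% were called, 13.4% higher and 16.2% lower, and the median was -0.01. The count of lower members was 3 without control library 1, and that of higher members 2 without overexpression library 2, control library 1 or control library 2.

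Of the pathway's own feedback and repressor genes, brk fell and Dad rose, while the receptor genes were not called. brk, the repressor that Dpp signalling silences, fell from 15.4, 14.7 and 14.9 to 7.84, 7.75 and 7.86 CPM (-0.94 ± 0.09, adjusted p = 1.05e-06). Dad, the inhibitory Smad that the pathway induces, rose from 75.1, 72.6 and 74.4 to 90.8, 95.6 and 96.3 CPM (0.35 ± 0.04, adjusted p = 1.24e-05). Neither gene's groups overlapped, and the 3 libraries of each group lay within a few CPM of each other. The type I receptor gene tkv gave 93.3, 93.5 and 88.5 CPM against 86.5, 85.6 and 83.2 CPM, and was not called (-0.11 ± 0.04, adjusted p = 0.0665). The receptor genes sax, put and wit, the Smad gene Mad and the ubiquitin ligase gene Smurf were not called either, with log2 changes from -0.10 to 0.06. In all, the list of 10 receptor, Smad and feedback genes, brk and Dad among them, held 3 rises and 1 fall, and 6 were not called, with a median of 0.02. Their share called was 40.0%, against 29.6% over all tested genes. The higher calls of Med and shn, which encode the Smad and zinc finger partners of Mad, were small (0.13 and 0.20). That of Med ended without control library 1, and that of shn without overexpression library 2, control library 2 or control library 3. In the activin branch, which signals through babo and Smox, none of 7 genes was called, and their log2 changes ran from -0.21 (daw) to 0.08 (babo). At an unadjusted p under 0.05 edgeR's quasi-likelihood test picked 1 of them, lower, DESeq2 called 0, and 1 was called when overexpression library 1 or 3 was left out.

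Among 29 tested genes listed as regulated by Dpp in embryos or imaginal discs, 10 fell, 0 rose and 19 passed no test, with a median of -0.23. Their share called was 34.5%, against 29.6% over all tested genes. Dad, which rose, was counted with the receptor and Smad genes above and is not in this list. The list does not separate genes that Dpp raises from genes that it lowers. No gene of the list was higher at an unadjusted p under 0.05 in edgeR (0) or called higher by DESeq2 (0). The lower count was 6 without overexpression library 1, and 1 gene was higher without overexpression library 3. aos encodes Argos, a secreted inhibitor of the EGF receptor. Its level fell from 38.3, 38.9 and 37.7 to 24.4, 24.8 and 24.4 CPM (-0.64 ± 0.07, adjusted p = 5.93e-06), with no overlap. Dll, the homeodomain factor of distal limbs, fell from 41.9, 39.6 and 37 to 21.2, 24.3 and 21.9 CPM (-0.81 ± 0.14, adjusted p = 0.00054). ara, an Iroquois homeodomain gene, fell from 9.25, 9.39 and 9.18 to 6.15, 6.63 and 6.59 CPM (-0.52 ± 0.09, adjusted p = 0.000468). For each of these genes every overexpression library was below every control library. Ance, which encodes an angiotensin-converting enzyme homologue, fell from 96.8, 98.3 and 91.7 to 69, 74.5 and 49 CPM (-0.57 ± 0.10, adjusted p = 0.000907). The wing target gene vg was measured at 3.49, 3.92 and 3.99 CPM against 3.58, 3.19 and 4.45 CPM and was not called (-0.04, adjusted p = 0.829). Its partners in many disc assays, salm and bi, had small lower calls (-0.24 and -0.27). The call of salm ended without overexpression library 1, overexpression library 2, control library 1 or control library 3, and that of bi without any of the libraries except overexpression library 3.

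Of 19 genes of EGF and FGF signalling 1 rose and 4 fell, a share of 26.3% against 29.6% over all tested genes. There were 2 rises without overexpression library 3, and 2 falls without overexpression library 2 or control library 1. bnl, the FGF that guides tracheal branching, rose from 13, 13.7 and 13.6 to 23, 22.4 and 17.9 CPM (0.66 ± 0.08, adjusted p = 1.71e-05). vn, a neuregulin-like ligand of the EGF receptor, fell from 31.2, 30.2 and 29.8 to 22.2, 22 and 27.8 CPM (-0.35 ± 0.08, adjusted p = 0.00308). The groups were separate for both genes, although overexpression library 3 lay nearest to control in each. wg, a ligand of the Wnt family, fell from 5.75, 5.43 and 6.37 to 4.4, 3.86 and 4.1 CPM (-0.50 ± 0.12, adjusted p = 0.00599), also without overlap. The receptor genes Egfr, htl and btl were not called (-0.06, -0.06 and 0.25).

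Across the transcriptome 3156 genes were called, 1426 higher and 1730 lower. The split was 1531 higher and 1471 lower with the 6 libraries fitted alone, and 1624 higher and 1558 lower with a replicate block over those 6, so that which direction held more genes depended on the fit. Most changes were small. The median size among called genes was 0.44 on the log2 scale, and 60.8% of them changed by less than 1.5-fold. At least 2-fold changes were called for 664 genes (6.22% of those tested), with 320 higher (3.0%) and 344 lower (3.22%). The largest changes were rises, since 66 genes rose and 13 fell by at least 8-fold, and 31 rose and 0 fell by at least 32-fold. The 3 overexpression libraries lay outside all 3 control libraries for 4876 genes (45.7%), and outside all other 12 libraries for 1940 genes (18.2%), 986 of them above (9.24%) and 954 below (8.94%). The share called was 32.7% on chromosome arm 2L, 33.2% on 2R, 27.4% on 3L, 29.8% on 3R, 25.2% on X and 19.8% on chromosome 4, and differences between arms were not tested.

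**Figure D2:**
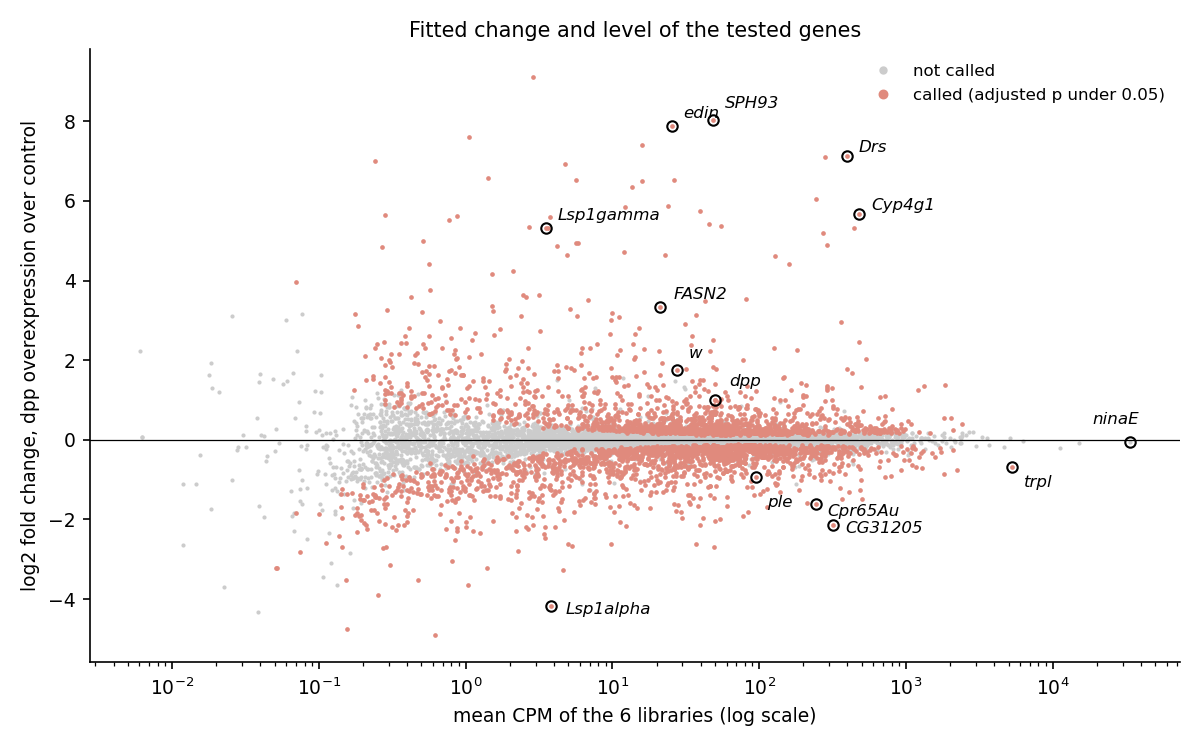
Fitted log2 fold change (overexpression over control) against the mean CPM of the 6 libraries (log axis) for the 10668 tested genes, grey when not called and red when called; circles mark named genes. The rises reach farther from 0 than the falls, with Drs at 7.14 and SPH93 at 8.03 against Lsp1alpha at -4.17, while ninaE, at the right, is at -0.05.

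Of the 65 gene lists compared, the antibacterial peptides had the highest median change. All 13 tested antibacterial peptide genes were higher, with a median log2 change of 5.41 and a range from 2.60 to 7.89, and all 13 kept their call when any 1 of the 6 libraries was left out. Dro encodes drosocin, and it rose from 3.02, 5.12 and 3.96 to 483, 498 and 693 CPM (7.11 ± 0.21, adjusted p = 1.75e-10). DptA (Dpt in the files), a diptericin gene of the Imd response, rose from 3, 10.7 and 8.16 to 540, 490 and 422 CPM (6.06 ± 0.39, adjusted p = 6.7e-07). The lowest overexpression library was many times above the highest control library for each, and above the other 9 libraries, which reached 13.6 CPM for Dro and 13.9 CPM for DptA. edin, a small secreted peptide gene induced by infection, was nearly silent in control at 0.127, 0.238 and 0.289 CPM and reached 49.5, 61.5 and 41.1 CPM (7.89 ± 0.20, adjusted p = 2.94e-13). AttC, an attacin gene, rose from 13.2, 28.5 and 23.4 to 1010, 904 and 660 CPM (5.31 ± 0.50, adjusted p = 1.65e-05). Def, which encodes defensin, had the smallest rise of the list, from 8.05, 11.1 and 10.5 to 67.3, 74.2 and 37.5 CPM (2.60 ± 0.26, adjusted p = 1.32e-05). Attacin and cecropin genes have near-identical copies, so the division of reads among AttA and AttB or among CecA1, CecA2, CecB and CecC is uncertain.

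Peptides of the antifungal arm rose as well, except in 1 branch of a family. Drs, the drosomycin gene, rose from 4.78, 6.57 and 5.51 to 804, 668 and 900 CPM (7.14 ± 0.15, adjusted p = 4.2e-13). Mtk, which encodes metchnikowin, rose from 10.1, 25.7 and 20.2 to 689, 501 and 483 CPM (4.90 ± 0.37, adjusted p = 2.4e-06). Its relative Mtkl (CG43236 in the files) rose too (2.67 ± 0.14, adjusted p = 8.43e-10). The drosomycin-like genes Drsl4 and Drsl5 (dro4 and dro5) went the other way. Drsl4 fell from 523, 516 and 456 to 236, 227 and 188 CPM (-1.20 ± 0.10, adjusted p = 1.42e-07), and Drsl5 from 556, 560 and 507 to 209, 227 and 145 CPM (-1.48 ± 0.16, adjusted p = 1.95e-05). Neither pair of groups overlapped. For Drsl5 the other 9 libraries of the series spanned 193 to 472 CPM, which covers overexpression libraries 1 and 2. Drsl2 was not called (0.16, adjusted p = 0.785).

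The Bomanin, Daisho and Baramicin genes, short peptides that the Toll pathway induces, were already expressed in control and rose by smaller factors. Rises were called for 14 of the 18 tested and a fall for 1, while 3 passed no test, and the median was 1.32. BomS1 (IM1) rose from 208, 218 and 187 to 788, 538 and 621 CPM (1.67 ± 0.13, adjusted p = 6.53e-07), and BomS2 (IM2) from 782, 766 and 722 to 2320, 1760 and 1700 CPM (1.35 ± 0.11, adjusted p = 2.92e-07). Bbd (CG18067) gained more CPM than any other called gene, from 1110, 1020 and 972 to 2860, 2290 and 2920 CPM (1.38 ± 0.09, adjusted p = 1.59e-08). Dso1 (IM4), a Daisho gene, rose from 772, 731 and 663 to 2060, 1480 and 1560 CPM (1.24 ± 0.12, adjusted p = 2.77e-06). All of these had separate groups. BaraC (CG30285) was the exception to the direction and fell from 56, 55.3 and 52.5 to 45.8, 41.9 and 43.7 CPM (-0.32 ± 0.05, adjusted p = 0.000165). BomS4 (CG18107) was not called at 151, 139 and 134 CPM against 180, 134 and 143 CPM. Neither were BomT3 and BomS6 (0.24 and 0.41), which were called when overexpression library 2 was left out, and the count of higher genes was then 16. BaraA1 and BaraA2 are near-identical copies whose reads may have been split.

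**Figure D3:**
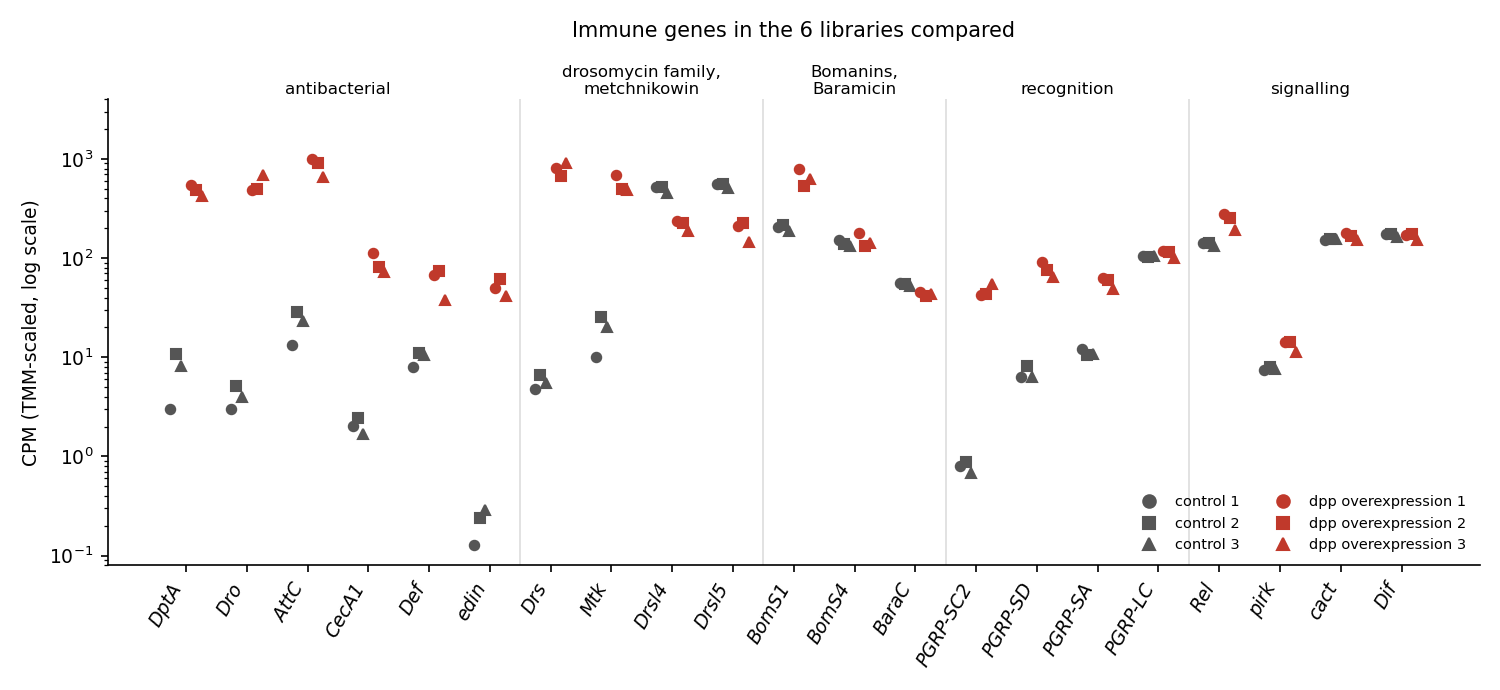
CPM (log axis) of 21 immune genes in the 3 control libraries (grey) and the 3 overexpression libraries (red), grouped as antibacterial peptides, drosomycin family and metchnikowin, Bomanins and Baramicin, recognition proteins and signalling. Dro, DptA, edin and Drs are separated by more than a factor of 30, Drsl4, Drsl5 and BaraC lie lower with overexpression, and PGRP-LC, cact and Dif overlap between the groups or nearly so.

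Among recognition proteins 6 of 14 tested genes rose, most of them short, secreted peptidoglycan recognition proteins (PGRPs). PGRP-SC2, an amidase that degrades peptidoglycan, rose from 0.796, 0.88 and 0.682 to 42.1, 43.7 and 55.3 CPM (5.87 ± 0.16, adjusted p = 5.92e-13). PGRP-SD, a secreted recognition protein, rose from 6.33, 8.12 and 6.37 to 92.3, 76.7 and 65 CPM (3.49 ± 0.14, adjusted p = 2.87e-10). PGRP-SA, which activates Toll on bacterial cell walls, rose from 12, 10.6 and 10.7 to 63.1, 59.6 and 48.8 CPM (2.37 ± 0.10, adjusted p = 5.65e-11). The amidase genes PGRP-SB1 (2.26 ± 0.15) and PGRP-LB (1.10 ± 0.07) and GNBP-like3 (CG13422; 2.31 ± 0.12) rose as well. The Imd receptor genes PGRP-LC and PGRP-LE were not called, at 104, 103 and 104 CPM against 119, 114 and 101 CPM for PGRP-LC (0.10, adjusted p = 0.218) and with a change of -0.02 for PGRP-LE. Of the 14, 0 fell, also at an unadjusted p under 0.05 in edgeR and in DESeq2, and 8 passed no test. Without overexpression library 3 the count was 9 rises and 1 fall.

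Of the signalling core of both pathways 27.3% of the genes were called, near the 29.6% over all tested genes. Rel, the NF-kappaB factor of the Imd pathway, rose from 143, 143 and 132 to 277, 251 and 191 CPM (0.78 ± 0.10, adjusted p = 2.8e-05). pirk, a feedback inhibitor of that pathway, rose from 7.49, 8.03 and 7.61 to 14.2, 14.2 and 11.3 CPM (0.79 ± 0.13, adjusted p = 0.00022). Both genes had separate groups, with overexpression library 3 nearest to control. spz, which encodes the Toll ligand, fell from 64.3, 62.8 and 61.5 to 45.2, 48.3 and 38.5 CPM (-0.51 ± 0.09, adjusted p = 0.000323). The upstream protease gene modSP fell too (-0.46 ± 0.10, adjusted p = 0.00239), while the receptor gene Tl rose slightly (0.17 ± 0.04, adjusted p = 0.00748). Dif, dl and cact, the NF-kappaB factors of the Toll pathway and their inhibitor, were not called (-0.06, -0.07 and 0.10). Over both pathways 4 of 22 tested genes rose, 2 fell and 16 passed no test, with a median of 0.00. The higher count was 8 without overexpression library 3.

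Protease inhibitors and melanization enzymes were partly affected. Spn88Eb, a serpin gene, rose from 12.1, 14 and 12.4 to 204, 143 and 104 CPM (3.55 ± 0.22, adjusted p = 2.46e-07). SPH93 (CG6639), a serine protease homologue, rose from 0.235, 0.495 and 0.367 to 102, 77.1 and 111 CPM, or 264-fold (8.03 ± 0.22, adjusted p = 8.8e-12). For both genes the overexpression libraries were far above all others. PPO1 (proPO-A1), a prophenoloxidase gene of crystal cells, fell from 19.2, 17.6 and 14.4 to 6.55, 6.08 and 2.91 CPM (-1.66 ± 0.21, adjusted p = 6.22e-05). Hayan (CG6361), a protease that activates melanization, rose from 21.4, 23.5 and 21.7 to 44.9, 41.2 and 36.8 CPM (0.89 ± 0.07, adjusted p = 2.18e-07). Among the 19 tested serpins there were 8 rises and 1 fall, and the median was 0.23. Of 12 melanization and thioester protein genes 4 rose and 3 fell. Of 10 genes of the JAK/STAT pathway and the Turandot family, et, which encodes a pathway antagonist, rose from 12.4, 13.1 and 12.1 to 43.4, 34.9 and 17.6 CPM (1.37 ± 0.23, adjusted p = 0.000671). The stress peptide genes TotA, TotC, TotM and TotX were not called. Among 16 genes of the JNK pathway and tissue stress 2 were higher and 5 lower, a share of 43.8% against 29.6% over all tested genes. Ets21C, a stress-induced ETS factor, rose from 2.08, 1.72 and 1.84 to 7.02, 6.86 and 4.49 CPM (1.72 ± 0.18, adjusted p = 2.41e-06), whereas grnd (CG10176), a receptor of the fly tumour necrosis factor, fell from 33.3, 33.2 and 31.6 to 20.9, 21.8 and 16.8 CPM (-0.71 ± 0.09, adjusted p = 1.08e-05). The JNK feedback gene puc fell slightly (-0.17 ± 0.04, adjusted p = 0.00646).

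Haemocyte and fat body markers, which mark the main immune tissues, were set beside these changes. The 11 haemocyte markers summed to 720 to 814 CPM in control and 558 to 894 CPM with overexpression. Of them 3 rose and 1 fell, a share of 36.4% against 29.6% over all tested genes. Without overexpression library 3, 5 were higher. srp, the GATA factor of both tissues, rose from 79.2, 78.5 and 75 to 127, 123 and 112 CPM (0.64 ± 0.07, adjusted p = 5.13e-06). The haemocyte marker that fell was PPO1, given above (-1.66). Hml, NimC1 and eater were not called (-0.65, 1.49 and 1.10), and overexpression library 3 lay below control for each. The 9 fat body markers summed to 7210 to 8290 CPM in control and 7360 to 8100 CPM with overexpression, with 2 higher (22.2%) and 7 not called. Without overexpression library 3, 4 fat body markers were higher and 1 lower. Their part in the immune changes was not tested.

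Of 12 tested genes of fatty acid synthesis 8 rose and 2 fell, and the median was 0.36. Their share called was 83.3%, against 29.6% over all tested genes. Summed over the 15 genes of the list, levels were 6640, 6280 and 6280 CPM in control and 8720, 8450 and 8150 CPM with overexpression. The other 9 libraries ranged from 8080 to 11600 CPM, a range that holds the overexpression libraries and lies above all control libraries. FASN1 (CG3523), the main fatty acid synthase, rose from 2180, 1990 and 2060 to 2800, 2830 and 2550 CPM (0.39 ± 0.09, adjusted p = 0.0024). ACC, acetyl-CoA carboxylase, rose from 824, 797 and 787 to 1100, 1080 and 975 CPM (0.39 ± 0.07, adjusted p = 0.000706). The groups were separate for both. ATPCL (0.37 ± 0.06), AcCoAS (0.34 ± 0.08), Desat1 (0.54 ± 0.07) and the regulator SREBP (HLH106; 0.34 ± 0.07) rose by similar amounts. FASN2 (v(2)k05816), a fatty acid synthase of oenocytes, rose from 3.67, 4.25 and 3.36 to 44.7, 35.7 and 34.3 CPM (3.34 ± 0.16, adjusted p = 2.55e-09), whereas FASN3 (CG17374) fell from 10.4, 10.4 and 8.39 to 5.16, 4.21 and 4.03 CPM (-1.11 ± 0.16, adjusted p = 6.87e-05). SCAP, the escort protein that SREBP needs for its activation, fell from 156, 153 and 152 to 109, 103 and 109 CPM (-0.52 ± 0.05, adjusted p = 2.21e-06).

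Of 17 tested genes of fat storage and fatty acid oxidation 8 fell and 2 rose, with a median of -0.18. Mcad (CG12262), the medium-chain acyl-CoA dehydrogenase of beta-oxidation, fell from 260, 264 and 243 to 167, 169 and 131 CPM (-0.71 ± 0.08, adjusted p = 7.59e-06). Mtpalpha, a subunit of the mitochondrial trifunctional protein, fell from 191, 187 and 177 to 143, 148 and 119 CPM (-0.44 ± 0.07, adjusted p = 0.000253), and its partner Mtpbeta (Thiolase) fell by a similar amount (-0.35 ± 0.08). whd, the carnitine palmitoyltransferase that admits fatty acids to mitochondria, fell from 262, 253 and 236 to 220, 218 and 179 CPM (-0.28 ± 0.07, adjusted p = 0.00627). None of these genes had overlapping groups. Lsd-2, a perilipin of lipid droplets, fell from 402, 393 and 369 to 317, 313 and 295 CPM (-0.33 ± 0.06, adjusted p = 0.000533). The exception was Mtp, which loads lipid onto lipoproteins and rose from 84.8, 80.2 and 76.8 to 137, 119 and 87.1 CPM (0.51 ± 0.13, adjusted p = 0.00889). The second higher gene, the lipase gene bmm (0.26, adjusted p = 0.039), lost its call without any of the libraries except overexpression library 3.

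Sugar metabolism showed rises in storage sugar genes. Tps1, trehalose-phosphate synthase, rose from 480, 467 and 432 to 1100, 1040 and 788 CPM (1.09 ± 0.10, adjusted p = 7.44e-07). Pgm1 (Pgm), which interconverts glucose phosphates, rose from 211, 209 and 216 to 322, 304 and 294 CPM (0.53 ± 0.05, adjusted p = 6.65e-07). The glycogen branching enzyme gene AGBE (CG33138) rose from 113, 117 and 113 to 150, 146 and 137 CPM (0.34 ± 0.05, adjusted p = 4.06e-05). Of 8 tested trehalose and glycogen genes 4 were higher and 4 not called, among the latter the breakdown enzymes Glyp and Treh (-0.05 and 0.07). Hex-C, a hexokinase, rose from 77.3, 81.3 and 74.4 to 133, 128 and 113 CPM (0.68 ± 0.09, adjusted p = 2.93e-05), while Pfk, Pgk, Eno and PyK were not called. Of 14 glycolysis genes 5 rose and 1 fell, and 2 were higher without control library 2 and 3 without control library 1 or 3. Pepck, the enzyme of gluconeogenesis, fell from 1460, 1530 and 1360 to 981, 896 and 819 CPM (-0.69 ± 0.12, adjusted p = 0.00041). Mal-B2, a maltase gene, rose from 178, 172 and 163 to 486, 425 and 313 CPM (1.26 ± 0.12, adjusted p = 2.28e-06), whereas tobi, an alpha-glucosidase gene regulated by brain insulin, fell from 35.7, 32.4 and 28.6 to 16, 13.2 and 16.9 CPM (-1.08 ± 0.15, adjusted p = 8.59e-05). For tobi both groups lay far below the other 9 libraries, which ranged from 325 to 678 CPM.

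Growth control genes shifted by small amounts. Thor, a repressor of translation initiation that Tor inactivates, rose from 125, 123 and 124 to 174, 174 and 180 CPM (0.50 ± 0.05, adjusted p = 2.09e-06). scyl and chrb encode related inhibitors of Tor. scyl fell from 172, 181 and 184 to 98.8, 101 and 135 CPM (-0.69 ± 0.11, adjusted p = 0.000302), and chrb from 234, 231 and 228 to 162, 148 and 195 CPM (-0.46 ± 0.08, adjusted p = 0.000436). The 3 genes had separate groups, and for scyl and chrb overexpression library 3 was the nearest to control. S6k, Tsc1 and gig rose by 0.27, 0.22 and 0.24. Of 22 insulin, Tor and Myc genes 10 rose and 3 fell, with a median of 0.11. Genes for cytosolic ribosomal proteins gave 41 rises and 2 falls among 85 tested (50.6%, against 29.6% over all tested genes), and a median of 0.18. The changes were small: RpL32 rose from 427, 439 and 429 to 532, 559 and 581 CPM (0.37 ± 0.06, adjusted p = 0.000322). Summed over the 92 genes of the list, levels were 49600, 50700 and 51400 CPM in control and 55000, 54700 and 60200 CPM with overexpression. The other 9 libraries ranged from 53000 to 58800 CPM, which covers overexpression libraries 1 and 2 and lies above all control libraries. The count of rises was 26 without control library 1, the count of falls was 4 without overexpression library 3 and 1 without any other library, and the median was 0.13 without overexpression library 3. Mitochondrial ribosomal protein genes were mostly not called, 64 of 72, and so were the subunits of the respiratory complexes, 54 of 56, with a median of 0.03, and 31 of 35 proteasome genes.

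**Figure D4:**
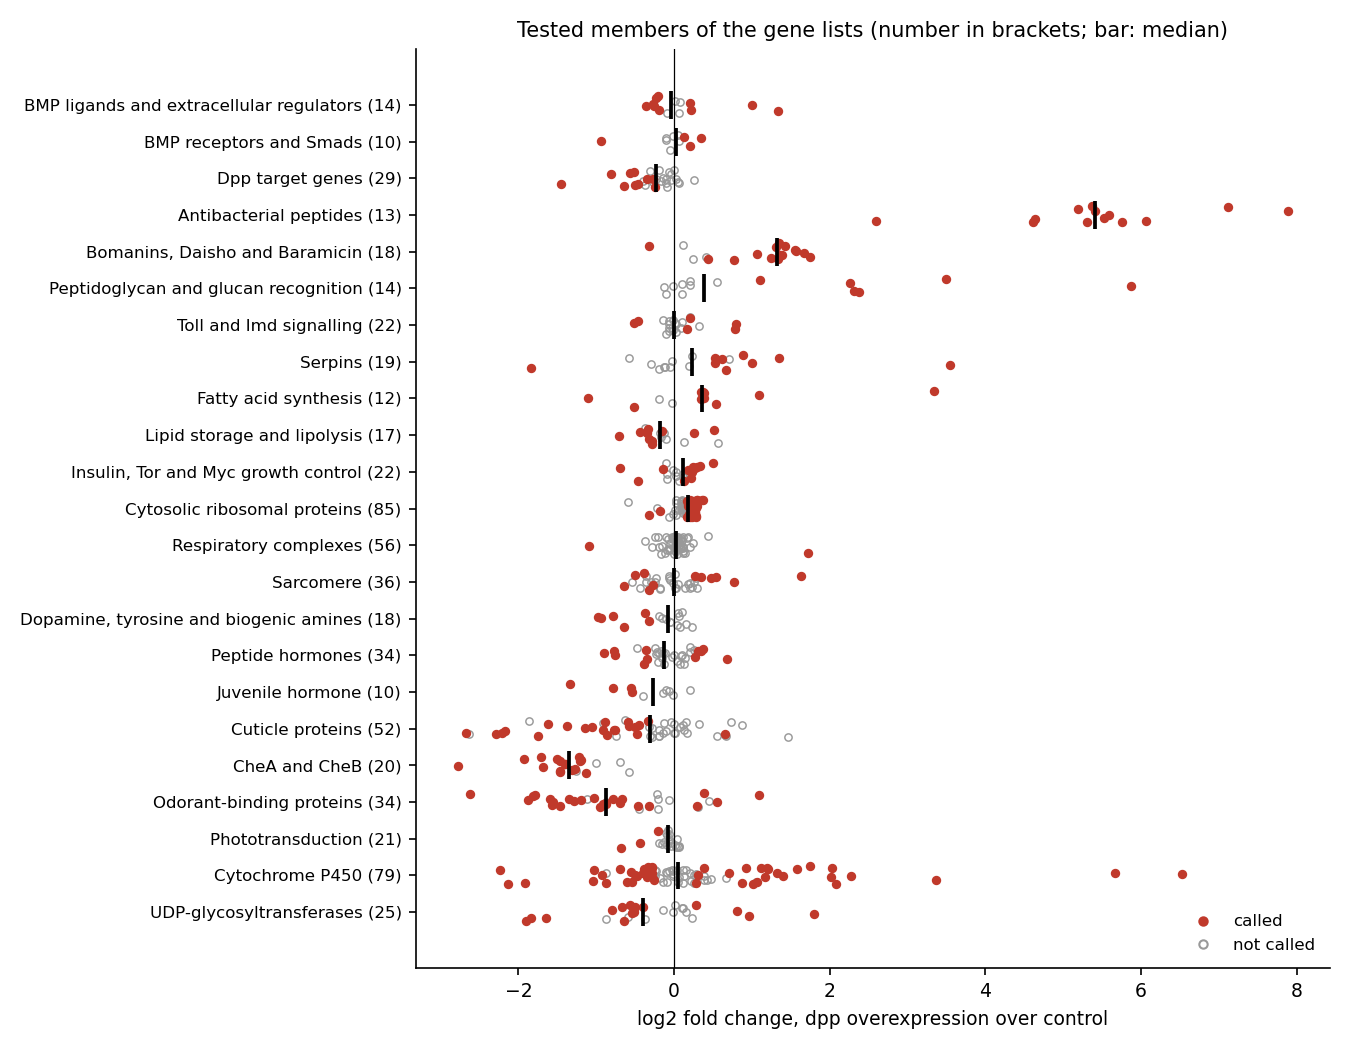
Fitted log2 fold changes of the tested members of 23 gene lists, red when called and open grey when not; the black bar is the list's median and the number in brackets the tested members. Antibacterial peptides (median 5.41) stand at the right, cuticle proteins (-0.32), CheA and CheB (-1.35) and odorant-binding proteins (-0.87) at the left, and the respiratory complexes (0.03) and sarcomere (0.00) around 0.

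The title's reference to dopamine synthesis made the amine genes of interest. ple, tyrosine hydroxylase and the rate-limiting enzyme of dopamine synthesis, fell from 130, 123 and 122 to 61, 69.9 and 63.9 CPM (-0.94 ± 0.09, adjusted p = 1.07e-06). The groups did not overlap, and the overexpression libraries were also below the other 9 libraries (77.5 to 144 CPM). Pu, GTP cyclohydrolase, and pr, a pteridine synthase, supply the cofactor of that enzyme. Pu fell from 169, 172 and 178 to 130, 138 and 149 CPM (-0.32 ± 0.05, adjusted p = 0.000229), and pr from 69.4, 69.9 and 73.6 to 52, 52.8 and 58.7 CPM (-0.38 ± 0.06, adjusted p = 8.02e-05). Ddc, the decarboxylase that completes dopamine, was measured at 373, 383 and 408 CPM against 327, 345 and 375 CPM and was not called (-0.15 ± 0.07, adjusted p = 0.0938). It was called lower without overexpression library 3 (-0.21, adjusted p = 0.0203). The neuronal genes Vmat and DAT, which load and retrieve dopamine, were not called (-0.05 and 0.05), and neither were the octopamine and serotonin genes Tbh, Tdc2, Trhn (Trh) and SerT.

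The genes b, e and speck, whose enzymes act in cuticle tanning as well as in neurons and glia, fell. b, which makes beta-alanine, fell from 91.3, 86.9 and 76.8 to 47.9, 43 and 37.8 CPM (-0.98 ± 0.12, adjusted p = 3.04e-05), and e, which joins beta-alanine to dopamine, fell from 67.4, 63.4 and 58.2 to 41.5, 35.3 and 32.7 CPM (-0.78 ± 0.09, adjusted p = 1.71e-05). speck (Dat), an arylalkylamine acetyltransferase, fell from 213, 210 and 194 to 134, 142 and 117 CPM (-0.65 ± 0.06, adjusted p = 8.9e-07). Of 18 tested genes of dopamine, tyrosine and biogenic amines 6 fell, 0 rose and 12 passed no test, with a median of -0.08. Their share called was 33.3%, against 29.6% over all tested genes. In edgeR, 1 was higher at an unadjusted p under 0.05 and 1 was called higher without overexpression library 1, and DESeq2 called 0 higher. Of 15 amine receptor genes 2 fell, a share of 13.3%, below the 29.6% over all tested genes. Without overexpression library 2, 1 of the receptor genes was called higher. Of 10 neuron markers ChAT (Cha) rose (0.18, adjusted p = 0.0245), brp fell (-0.25, adjusted p = 0.0218) and 8 were not called, elav, nSyb and Syt1 among them (0.17, -0.03 and 0.00). There were 3 falls and 0 rises without overexpression library 3, and 3 rises and 0 falls without overexpression library 2. The call of brp ended when overexpression library 1 or 2 or any control library was left out, and that of ChAT without overexpression library 3 or control library 1 or 2. Cuticle protein genes, given below, fell in the same libraries, and the part of either tissue in the fall of ple was not tested.

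Peptide hormone genes gave 5 rises and 6 falls among 34 tested, a share of 32.4%, near the 29.6% over all tested genes. CCHa2, a nutrient-dependent hormone of fat body and gut, fell from 363, 336 and 324 to 184, 181 and 185 CPM (-0.90 ± 0.06, adjusted p = 2.99e-08). Ilp2, an insulin-like peptide of the brain's insulin-producing cells, fell from 76.6, 72.8 and 76.8 to 39.6, 40.5 and 53.1 CPM (-0.77 ± 0.10, adjusted p = 3.58e-05). Ilp5, made by the same cells, fell from 17.2, 17.8 and 17.9 to 9.29, 9.33 and 13.1 CPM (-0.76 ± 0.11, adjusted p = 5.43e-05). Both insulin genes were lower in every overexpression library than in all 12 others. Dsk, a satiety peptide of the same cells, fell from 107, 104 and 111 to 83, 83.5 and 83.2 CPM (-0.36 ± 0.06, adjusted p = 0.000224). Proc (Proct), the proctolin gene, rose from 34.6, 35.2 and 37 to 56.5, 54.3 and 60.6 CPM (0.68 ± 0.07, adjusted p = 1.13e-06). Hug and Dh44 rose by 0.31 ± 0.05 and 0.35 ± 0.09. Ilp3, NPF and sNPF were not called. The lower count was 13 without overexpression library 3, and the higher count was 3 without control library 1. Outside this list fit, a fat body satiety hormone gene, rose from 27.1, 24.2 and 22 to 53.4, 54.9 and 70.3 CPM (1.28 ± 0.21, adjusted p = 0.000633). It was also counted in a list of markers of sex. Of 11 such markers 3 rose and 0 fell (27.3%), with a median of 0.18, and 4 rose and 1 fell without overexpression library 3. The sex of the flies is not given, and a part of sex make-up in the rise of fit was not tested.

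Of 126 genes listed as cuticle proteins in the files 52 passed the filter on low counts, and of those 20 fell and 1 rose, with a median of -0.32. Both the 126 and the 52 include Cpr, which encodes a cytochrome P450 reductase and no cuticle protein, and which was not called (0.73, adjusted p = 0.108). The lower count was 13 without control library 2. Cpr65Au fell from 375, 359 and 363 to 125, 115 and 118 CPM (-1.62 ± 0.07, adjusted p = 5.03e-11), with no overlap and below the other 9 libraries (297 to 469 CPM). Lcp65Ag2 fell from 8.78, 9.17 and 9.68 to 1.38, 1.54 and 1.38 CPM (-2.67 ± 0.14, adjusted p = 9.31e-10), although it has near-identical copies. Cpr76Bc fell from 13.3, 12.5 and 13 to 5.48, 4.92 and 4.45 CPM (-1.37 ± 0.10, adjusted p = 3.39e-08). TwdlT was the only higher member, from 7.46, 7.5 and 6.74 to 12, 11.6 and 10.5 CPM (0.66 ± 0.08, adjusted p = 6.26e-06). The further gene called higher without overexpression library 3 was Cpr (1.09, adjusted p = 3.12e-07).

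Genes of smell and contact chemosensation included many falls, though few among gustatory receptor and pickpocket channel genes. Of 34 tested odorant-binding protein genes 21 fell and 4 rose, with a median of -0.87. Obp19d (Pbprp2) fell from 1070, 1050 and 1000 to 552, 621 and 491 CPM (-0.91 ± 0.11, adjusted p = 1.4e-05), and Obp56a from 74.6, 65.7 and 52.1 to 7.63, 13.1 and 10.9 CPM (-2.62 ± 0.29, adjusted p = 4.51e-05). Obp83ef went the other way, from 2.81, 3.06 and 2.91 to 6.06, 6.81 and 5.71 CPM (1.09 ± 0.11, adjusted p = 2.4e-06). Of 20 tested genes of the CheA and CheB families, which encode secreted proteins of contact chemosensory hairs, 16 fell and 0 rose (0 too at an unadjusted p under 0.05 in edgeR and in DESeq2), with a median of -1.35. The lower count was 10 without overexpression library 1. Summed over the 20 genes, levels were 317, 281 and 232 CPM in control and 94, 133 and 106 CPM with overexpression. Both groups lay inside the range of the other 9 libraries, from 11.9 to 619 CPM. Of 72 odorant and ionotropic receptor genes that passed the filter, out of 123, 23 fell and 4 rose. The lower count was 11 without overexpression library 1, 7 without control library 1 and 13 without control library 2. Ir41a, an ionotropic receptor gene, fell from 3.98, 4.18 and 4.09 to 1.54, 1.63 and 1.38 CPM (-1.41 ± 0.20, adjusted p = 5.23e-05), and Ir76a rose from 6.8, 6.44 and 6.58 to 14, 15.1 and 15.8 CPM (1.18 ± 0.08, adjusted p = 1.12e-08). Each of these receptors had separate groups, but in the other 9 libraries Ir41a ranged from 1.08 to 2.4 CPM and Ir76a from 14.4 to 18 CPM, so that the control libraries were those that stood apart from the rest of the series. For Obp56a the other 9 libraries ranged from 6.33 to 174 CPM.

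In the visual system the main rhodopsin was not called, and of the opsin genes of inner photoreceptors Rh3 and Rh5 rose, Rh6 fell and Rh4 was not called. Rh5 and Rh6 are expressed in alternative subtypes of the inner photoreceptor R8. Rh6 fell from 1100, 1160 and 1220 to 642, 673 and 743 CPM (-0.76 ± 0.06, adjusted p = 2.24e-07), and Rh5 rose from 221, 222 and 228 to 313, 327 and 353 CPM (0.56 ± 0.07, adjusted p = 7.16e-06). The groups were separate for both. For Rh5 the other 9 libraries covered the whole range (188 to 596 CPM), and for Rh6 they lay above the overexpression libraries (975 to 1240 CPM). The change of Rh3 was 0.31 ± 0.07 (adjusted p = 0.00353), and that of Rh4 was -0.09 (adjusted p = 0.42). trpl, a light-activated channel, lost more CPM than any other called gene, from 6300, 6560 and 6710 to 3960, 4020 and 4250 CPM (-0.68 ± 0.06, adjusted p = 4.65e-07), while its partner trp was not called (0.06, adjusted p = 0.511). Of 21 phototransduction genes 3 fell and 0 rose, a share of 14.3%, below the 29.6% over all tested genes. At an unadjusted p under 0.05 in edgeR 0 were higher, and DESeq2 called 0 higher. The count of falls was 9 without overexpression library 3 and 1 without overexpression library 1 or 2 or control library 3. ninaD, a scavenger receptor for dietary carotenoids, rose from 4.65, 3.83 and 3.72 to 20.7, 18.5 and 13.6 CPM (2.12 ± 0.17, adjusted p = 3.58e-07). Downstream steps of visual pigment synthesis fell, with ninaB at -0.41 ± 0.05, santa-maria at -0.31 ± 0.05 and ninaG at -0.42 ± 0.07.

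Of 10 juvenile hormone genes 4 fell, a share of 40.0% against 29.6% over all tested genes. jhamt, the methyltransferase of juvenile hormone synthesis, fell from 6.28, 5.92 and 5.51 to 2.17, 2.87 and 1.84 CPM (-1.34 ± 0.29, adjusted p = 0.00355). The epoxide hydrolase genes that degrade the hormone fell too, among them Jheh3 from 77, 77.4 and 73.6 to 42.8, 45.6 and 44.2 CPM (-0.78 ± 0.07, adjusted p = 7.25e-07). Jheh1 and Jheh2 changed by -0.55 ± 0.05 and -0.54 ± 0.08. The receptor genes Met and gce were not called (-0.02 and -0.07), and neither was the response gene Kr-h1 (0.20, adjusted p = 0.0929). Of 20 ecdysone genes 4 rose and 2 fell (4 without overexpression library 3), a share near the 29.6% over all tested genes, among them ImpL1, from 6.5, 6.73 and 6.71 to 1.5, 1.58 and 1.23 CPM (-2.18 ± 0.12, adjusted p = 1.18e-09), and the hydroxylase gene shd, from 2.14, 1.76 and 2.12 to 3.72, 3.31 and 3.18 CPM (0.77 ± 0.15, adjusted p = 0.000753). The Hox gene Antp fell from 10, 9.74 and 9.55 to 4.47, 5.5 and 5.02 CPM (-0.97 ± 0.24, adjusted p = 0.00854). Ubx, a Hox gene and Dpp target in the gut, was called lower (-1.45 ± 0.40, adjusted p = 0.0149), a call that ended without overexpression library 1 (-1.29, adjusted p = 0.0735).

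Detoxification genes moved strongly in both directions. Of 79 tested cytochrome P450 genes 23 rose and 23 fell, and 35 were higher without overexpression library 3. Cyp6a2, linked to insecticide resistance, fell from 123, 123 and 121 to 32.2, 31.3 and 33.4 CPM (-1.92 ± 0.04, adjusted p = 1.42e-13). Cyp4ac2 fell from 69.3, 66.6 and 57.1 to 14.9, 14.7 and 14.3 CPM (-2.13 ± 0.11, adjusted p = 3.71e-09). Both had narrow spreads within each group, and the other 9 libraries ranged from 38.6 to 197 CPM for Cyp6a2 and from 26.5 to 74.5 CPM for Cyp4ac2. Cyp28d2 rose from 5.75, 5.24 and 5.88 to 30.6, 26.4 and 24.1 CPM (2.27 ± 0.13, adjusted p = 4.97e-09). Cyp9h1 rose from 32.8, 31.1 and 29.2 to 158, 128 and 88 CPM (2.01 ± 0.16, adjusted p = 9.09e-07). Of 32 glutathione transferase genes 6 were higher and 10 lower, with 2 higher without overexpression library 1, 3 higher without control library 2 or 3, and 6 lower without control library 1. Of 25 glycosyltransferase genes 4 were higher and 11 lower, with a median of -0.40, among them Ugt35C1 (Ugt86Dd), which fell from 59.4, 61.3 and 53.7 to 19.8, 17.8 and 18 CPM (-1.65 ± 0.11, adjusted p = 2.58e-08). The higher count of glycosyltransferases was 1 without overexpression library 1, 2 without control library 3 and 8 without overexpression library 3.

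Rises were called for 6 of 36 sarcomere genes and falls for 5, a share of 30.6% against 29.6% over all tested genes, and the median was 0.00. The counts fell to 3 higher without overexpression library 2 or 3 or control library 1 or 3, to 2 lower without overexpression library 1 or control library 1 or 2, and to 3 lower without overexpression library 3. Mhc, the myosin heavy chain, gave 2640, 2850 and 2500 CPM against 2790, 3430 and 2950 CPM, overlapping ranges that were not called (0.20 ± 0.14, adjusted p = 0.326). Act57B, an actin gene, rose from 571, 603 and 624 to 971, 1100 and 1010 CPM (0.77 ± 0.09, adjusted p = 1.3e-05) and exceeded the other 9 libraries (374 to 528 CPM). unc-45, a myosin chaperone, fell from 47.9, 47.1 and 46.9 to 38.1, 39.2 and 36 CPM (-0.32 ± 0.06, adjusted p = 0.00124). Of 12 muscle-defining markers 3 rose and 2 fell (41.7%). No rise was called without overexpression library 2 or 3 or control library 1 or 3, and 1 without control library 2; no fall was called without overexpression library 1 or 3 or control library 1 or 2. Of 22 heat-shock genes 2 rose and 1 fell (13.6%), and 6 were higher without overexpression library 2 and 1 without overexpression library 1 or any control library. Hsp67Bc fell from 14.2, 13.8 and 15.9 to 8.77, 8.13 and 8.28 CPM (-0.80 ± 0.09, adjusted p = 5.08e-06). Hsp70Bb was high in overexpression library 1 only (51, 12.2 and 11.3 CPM, against 9.16, 6.66 and 7.63 CPM in control). Its call (1.70, adjusted p = 0.0496) ended without that library (0.60, adjusted p = 0.312), and its reads may be shared with near-identical copies.

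Some of the largest single changes lay outside these groups. Lsp1alpha, a subunit of a larval storage protein, fell from 8, 7.57 and 6.06 to 0.239, 0.461 and 0.613 CPM (-4.17 ± 0.34, adjusted p = 1.26e-06), while Lsp1gamma, another subunit, rose from 0.199, 0.165 and 0.131 to 6.03, 6.27 and 8.51 CPM (5.31 ± 0.28, adjusted p = 1.18e-09). Both genes had separate groups, and Lsp1beta was not called (0.34, adjusted p = 0.0575). w, the pigment transporter gene mutated in w1118, whose mini-white form many fly transgenes carry as a marker, rose from 11.8, 12.8 and 13.2 to 39.4, 43.8 and 44.3 CPM (1.75 ± 0.08, adjusted p = 2.87e-10). A part of transgene markers in that rise was not tested. Dcr-1, which processes microRNA precursors, rose from 32.7, 34.2 and 33.7 to 66.7, 68 and 67.3 CPM (1.01 ± 0.05, adjusted p = 1.37e-09), a change with little spread in either group. phr, a DNA photolyase gene, fell from 17.7, 16.5 and 16.1 to 3, 2.69 and 2.34 CPM (-2.62 ± 0.15, adjusted p = 4.6e-09), although the other 9 libraries ranged from 1.68 to 23.2 CPM. Arc1, an activity-regulated gene of neurons, rose from 188, 215 and 229 to 849, 822 and 913 CPM (2.03 ± 0.24, adjusted p = 6.71e-05), within the range of the other 9 libraries (331 to 1390 CPM). CG31205, for which no function is given here, fell from 568, 546 and 459 to 129, 128 and 97.1 CPM (-2.15 ± 0.12, adjusted p = 9.07e-09).

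The largest fitted change belonged to CG33462, which had 1 count in the control group and 879 with overexpression. The ratio was 951, with a 95% counting interval from 170 to 37600 that covers counting error only. Its fitted log2 value of 9.11 was 8.39 without overexpression library 1 and 10.47 without control library 1. CG7290 had 0 counts in the control group and 69 with overexpression, at 0.512, 0.558 and 0.383 CPM, and was at least 24.9-fold higher against a floor of 3 counts summed over the control libraries. CG43920 (CR43920) rose from 0.145, 0.202 and 0.21 to 31.3, 32.4 and 31.4 CPM (7.41 ± 0.19, adjusted p = 2.94e-13), the 3 overexpression libraries being nearly equal. Falls past 2 on the log2 scale included Ttc26 (CG4525), from 9.1, 8 and 8 to 0.751, 1.21 and 0.498 CPM (-3.27 ± 0.27, adjusted p = 5.02e-07), and dachs (d), an atypical myosin of the Fat pathway, from 5.34, 6.44 and 5.48 to 1.16, 1.4 and 1.19 CPM (-2.19 ± 0.15, adjusted p = 1.6e-08). For Ttc26 the other 9 libraries ranged from 0.961 to 4.05 CPM, which covers overexpression library 2 and lies below all control libraries.

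Overexpression library 3 differed from libraries 1 and 2 at least 2-fold for 100 of 8363 genes of at least 5 CPM, 12 above and 88 below, against 2 such genes for control library 3. The genes that follow were chosen after their values were seen. Cyp4g1, the P450 of oenocytes that makes cuticular hydrocarbons, was at 21.2, 18.5 and 15.9 CPM in control and at 1850, 987 and 1.96 CPM with overexpression, so that library 3 lay below control and libraries 1 and 2 far above it. Its change was 5.67 ± 1.47 (adjusted p = 0.0141) and 6.25 ± 0.54 without that library (adjusted p = 1.34e-05). The call ended when control library 1, 2 or 3 was left out (adjusted p = 0.0547, 0.0576 and 0.0547). Of the haemocyte receptor genes, NimC1 was at 16.2, 14.2 and 12.3 CPM in control and 62.1, 50.6 and 5.29 CPM with overexpression, and was called only without library 3 (1.49, adjusted p = 0.0772, against 1.98, adjusted p = 1.46e-08). eater, a phagocytic receptor, showed the same order, at 39.7, 29.2 and 1.8 CPM against 12.6, 11.9 and 9.28 CPM (1.10, adjusted p = 0.237, against 1.61, adjusted p = 7.81e-05). Hml, which encodes hemolectin, was low in library 3 (31.2 CPM, against 177 and 225 CPM in libraries 1 and 2) but was not called with or without it. The sodium channel gene para turned direction, from 0.13 (adjusted p = 0.884) to -0.86 without library 3 (adjusted p = 0.046), with 50.6, 28.6 and 160 CPM against 85.9, 68.6 and 61.1 CPM in control.

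**Figure D5:**
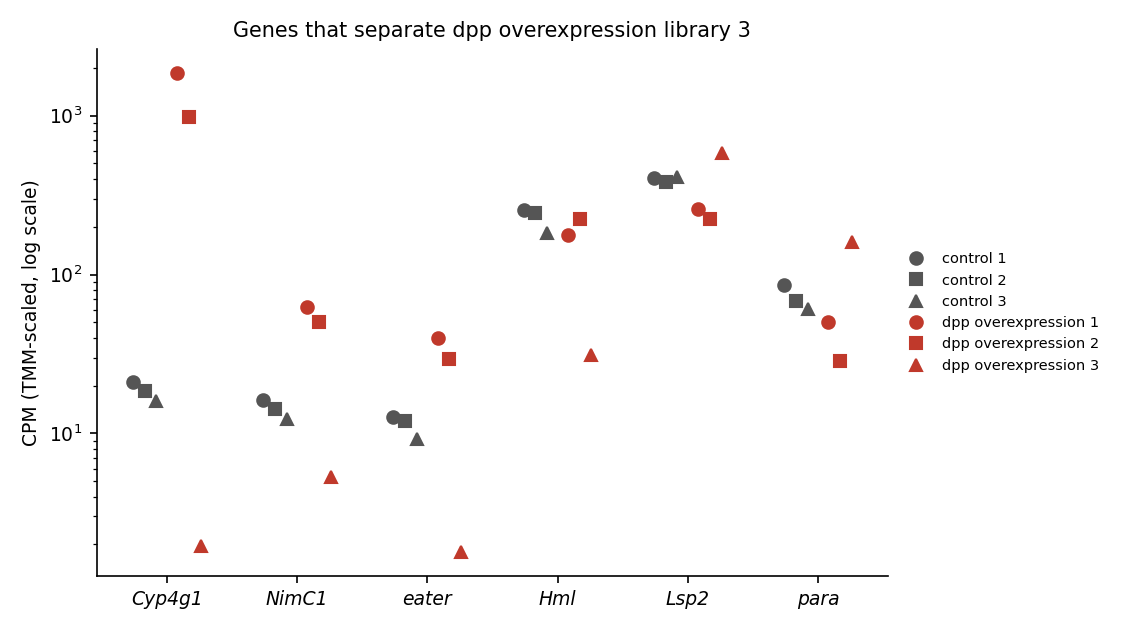
CPM (log axis) of 6 genes in the 3 control libraries (grey) and the 3 overexpression libraries (red). The red triangle, overexpression library 3, lies below all others for Cyp4g1 (1.96 CPM), NimC1 (5.29 CPM), eater (1.8 CPM) and Hml (31.2 CPM) and above all others for Lsp2 (586 CPM) and para (160 CPM).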

How the data were processed

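Per the labels, total RNA of dissected material was prepared with the RNeasy Micro Kit as stranded libraries. The authors deposited raw read counts per gene symbol, 1 table per library. BWA, STAR and HTSeq and the build dm3 are named in the submitters' processing notes; versions, annotation and strand setting are not given in the sources used here, so overlapping, antisense and near-identical genes are uncertain. The HTSeq summary lines, 14.48 to 20.93% of entries in the 15 libraries, were left out.

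The analysis used edgeR 4.0.16 under R 4.3.3: filterByExpr (minimum count 10) kept 10668 genes and left out 5014, and TMM scaling and a robust quasi-likelihood fit with a term per group used all 15 libraries (10 residual degrees of freedom, common biological coefficient of variation 0.0805), so the other 9 libraries enter through the spread. Adjustment was over all tested genes. Log2 CPM for library distances used a prior count of 2. With 3 libraries against 3, an exact permutation test cannot go below p = 0.1. Symbols are current ones, with the files' symbol in brackets: 11928 matched directly, 3431 through a synonym, 163 were ambiguous and 160 unmatched. Python 3.11.15, pandas 2.3.3, numpy 2.4.6 and matplotlib 3.10.9 made tables and plots. The fit was checked on simulated counts.

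Members and the 65 gene lists were chosen with earlier results of these data known. Named genes were dpp, list members (at most 4 per direction, by smallest adjusted p, in lists over 20), the 15 largest called changes per direction with at least 5 CPM and separate groups, the 10 largest CPM differences per direction, and genes without counts in 1 group. Other genes were chosen after their values were seen: genes of larger lists that were not called or lost their call, neighbours of dpp, and genes that separate overexpression library 3. Alternatives were RLE and upper-quartile scaling, DESeq2 1.42.0, no filter, the 6 libraries alone, a replicate block, and each library left out.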

Additional observations from a re-analysis of the deposited data

How the results depend on the processing

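As reported, 3156 genes were called. The count was 3139 with RLE scaling, 3148 with upper-quartile scaling, 3274 with DESeq2, 3000 without a filter and 3002 with the 6 libraries alone, of which 2674 were shared with those reported. No shared call changed direction in any alternative. With 1 library left out, the count ran from 2395 to 3463, higher genes from 1090 to 1610, lower genes from 1282 to 1853, genes of at least 2-fold from 557 to 709 (270 to 372 higher, 269 to 356 lower), called list members from 356 to 518 (477 as reported) and the log2 change of dpp from 0.89 to 1.15. Of 502 called genes that were named or listed, 348 kept their call in each of the 6 fits that leave out 1 library. Without overexpression library 3, grass (0.25, adjusted p = 0.00714), Sp7 (0.17, adjusted p = 0.0214), Spn88Ea (0.15, adjusted p = 0.0305) and para (-0.86, adjusted p = 0.046) were called in the direction opposite to their reported, uncalled values (-0.02, -0.03, -0.05 and 0.13); over the 6 fits they ran from -0.21 to 0.25, -0.18 to 0.17, -0.21 to 0.15 and -0.86 to 0.54. The call of Cyp4g1 ended with the 6 libraries alone (5.70, adjusted p = 0.102) and with the block over those 6 (4.52, adjusted p = 0.407). The cause was not tested.

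Deviations of same-numbered libraries correlated at 0, 0.06 and 0.19, and those of libraries with different numbers at -0.21 to 0.16. With 3 libraries per group these values cannot settle whether the shared replicate numbers pair the libraries. With a replicate block the count was 3138 over 15 libraries and 3182 over the 6, list members 465 and 503, and dpp 1.00 (adjusted p = 6.06e-05) and 1.01 (adjusted p = 0.00408).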
